A study of Mus musculus with 8 samples.

Results

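The neutrophil marker genes described here are S100a8, S100a9, Clec4e, Clec4d, Trem1, Trem3, Acod1, Hdc and Retnlg. They were taken by name, matched by Ensembl ID to the mouse annotation, and followed in all 8 tumors of both genotypes. All 9 were found among the 35539 gene IDs of the table, Acod1 under its older symbol Irg1.

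Bulk RNA was sequenced from 8 frozen mouse mammary tumors. Tumors 5 to 8 came from HMMR Tg/Tg Brca1f/f Trp53+/- mice (HMMR-Tg tumors), and Brca1f/f Trp53+/- mice gave tumors 1 to 4 (control tumors). By the methods of the study, every mouse was parous, of mixed background and a carrier of Blg-Cre, in which the beta-lactoglobulin promoter drives Cre recombinase in mammary epithelium. Cre thereby deletes the floxed exons of Brca1 in the mammary cells of both genotypes, and Trp53 is heterozygous in both. In HMMR-Tg mice it also removes a stop cassette ahead of a human HMMR coding sequence inserted at both Rosa26 alleles, so that the transgene is directed to mammary cells and not to leukocytes. The mice were age-matched per the labels, and no treatment was given. Nothing in the labels says which tumors came from separate mice, so p-values measure the spread between these tumors only, part of which may be technical.

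Neutrophils are short-lived phagocytes that are made in the bone marrow and enter inflamed tissue, tumors included, along gradients of chemokines that bind Cxcr2. Their cytoplasm is packed with the calcium-binding proteins S100a8 and S100a9, which pair as calprotectin, bind zinc and manganese, and act outside the cell on Tlr4 and Ager. None of the 9 genes is exclusive to neutrophils: monocytes and stressed keratinocytes also make calprotectin, activated macrophages express Acod1, Clec4e, Clec4d and Trem1, and mast cells and basophils express Hdc.

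Values are in TPM, a unit that corrects for transcript length and gives each gene as a share of the RNA of its tumor. Read numbers cannot be had from TPM, and the depth of each tumor is therefore unknown. Between 21522 and 22336 genes were above 0 in each tumor. A difference is HMMR-Tg minus control in mean log2(TPM + 1), a scale on which changes of genes near 0 are understated. The 9 genes together took between 0.00804% and 0.0492% of the TPM of a tumor.

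The neutrophil label was checked against Csf3r, the receptor for granulocyte colony-stimulating factor, Cxcr2, and Ly6g, a surface protein of mouse neutrophils. Csf3r was at 42.4, 14.9, 7.25 and 10.4 TPM in HMMR-Tg tumors 5, 6, 7 and 8, against 8.13, 9.86, 28.8 and 12.01 TPM in control tumors 1, 2, 3 and 4. Cxcr2 was at 10.6, 3.17, 1.03 and 2.97 TPM in HMMR-Tg tumors, against 2.65, 1.67, 8.08 and 3.07 TPM in control tumors, in the same tumor order, which is kept below. Both receptors were highest in HMMR-Tg tumor 5 and control tumor 3 and overlapped between genotypes. Ly6g did not exceed 0.784 TPM and was listed at 0 in HMMR-Tg tumor 7 and in control tumors 1 and 4. In bulk tissue, fewer cells of a type and less RNA per cell cannot be told apart.

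Across the 9 genes the mean log2 level was higher in HMMR-Tg tumors for 9 of 9, but no difference passed the test. The count past the adjusted threshold was 0 of the 9 genes (limma, Benjamini-Hochberg adjusted p under 0.05), beside 9 higher genes or 0.0607% and 0 lower genes or 0.0% of the 14835 tested. Trem3 averaged under 1 TPM and did not enter that fit, and its values come from a fit with no filter. At an unadjusted p under 0.05, 3 genes were higher in HMMR-Tg tumors (Clec4e, Trem1 and Acod1) and 0 were lower, against 1.62% and 1.83% of all genes tested. For 1 gene, Acod1, the genotypes did not overlap, against 1.04% of all genes tested that were higher in HMMR-Tg tumors with no overlap and 1.19% that were lower. A higher mean in HMMR-Tg tumors was seen for 48.7% of all genes. The median difference over the 9 genes was 0.83, with a range from 0.23 to 1.56, and the median over all genes tested was -0.01. These genes vary together between tumors, so 9 differences in 1 direction are not 9 independent observations.

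**Figure D1:**
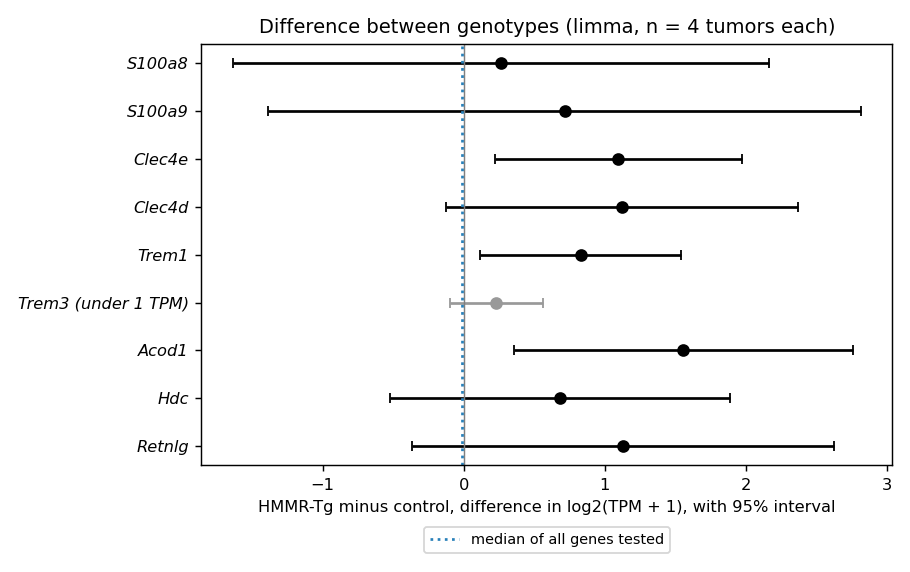
Difference between genotypes for each of the 9 neutrophil marker genes. The horizontal axis is HMMR-Tg minus control in mean log2(TPM + 1), points are limma estimates from 4 tumors per genotype, bars are 95% intervals, and the dotted line is the median of all genes tested (-0.01). Intervals lie above 0 for Clec4e, Trem1 and Acod1 before adjustment over all genes and cross 0 for the other 6 genes, of which Trem3 (gray) comes from the fit with no filter.

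S100a8 and S100a9 are neighboring genes on chromosome 3 and were by far the most abundant of the 9. S100a8 (ENSMUSG00000056054, mm9 chr3:90472993-90473956, plus strand) was at 209, 149, 10.6 and 166 TPM in HMMR-Tg tumors, against 49.1, 48.4, 157 and 73.6 TPM in control tumors. HMMR-Tg tumors 5, 6 and 8 and control tumor 3 were high, HMMR-Tg tumor 7 was below every control tumor, and the genotypes overlapped. Its mean was 134 ± 85.9 TPM in HMMR-Tg and 82.0 ± 51.3 TPM in control tumors (SD, n = 4 each), and the log2 difference of 0.27 had a 95% interval from -1.64 to 2.17 (exact permutation p = 0.914). The sign of this difference rested on single tumors, since leaving out tumor 5 gave -0.15, leaving out tumor 8 gave -0.04 and leaving out tumor 7 gave 1.24.

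S100a9 (ENSMUSG00000056071, mm9 chr3:90496554-90499643, minus strand) was at 236, 122, 12.9 and 142 TPM in HMMR-Tg tumors, against 25.8, 22.7, 223 and 55.2 TPM in control tumors. The same tumors were high as for S100a8, HMMR-Tg tumor 7 was again the lowest of all 8, and the genotypes overlapped. The log2 difference was 0.71, with an interval from -1.39 to 2.82 (exact permutation p = 0.514), and it was 0.23 without tumor 5 and 1.60 without tumor 7. Within a tumor, S100a9 stood to S100a8 at TPM ratios of 1.13, 0.819, 1.22 and 0.855 in HMMR-Tg tumors, against 0.524, 0.469, 1.42 and 0.750 in control tumors. The control ratios held both the lowest and the highest of the 8, and the log2 ratio did not differ beyond the spread (-0.01 ± 0.29 in HMMR-Tg and -0.48 ± 0.72 in control tumors, difference 0.47, exact permutation p = 0.314, adjusted p = 0.471 over 3 such ratios). Without control tumor 3, which had the highest ratio, the difference in log2 ratio was 0.80, with an exact permutation p of 0.0286 (adjusted p = 0.0857). That p is the smallest that the 35 arrangements of the remaining tumors can give. Leaving out any other single tumor gave an exact permutation p from 0.314 to 0.571.

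Clec4e and Clec4d, which encode the C-type lectin receptors Mincle and Mcl, lie side by side on chromosome 6 and detect mycobacterial glycolipids and, for Mincle, ligands from dead cells. Clec4e (ENSMUSG00000030142, mm9 chr6:123231807-123239889, minus strand) was at 10.4, 7.22, 4.39 and 6.32 TPM in HMMR-Tg tumors, against 1.14, 2.81, 5.70 and 2.245 TPM in control tumors. Every HMMR-Tg tumor was above 3 of the 4 control tumors, and only HMMR-Tg tumor 7 and control tumor 3 overlapped. The mean was 7.08 ± 2.50 TPM in HMMR-Tg and 2.97 ± 1.95 TPM in control tumors, a log2 difference of 1.10 with a standard error of 0.39 (limma unadjusted p = 0.0193, Benjamini-Hochberg adjusted p = 0.9998, exact permutation p = 0.0571). The difference stayed between 0.84 and 1.39 with any single tumor left out.

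Clec4d (ENSMUSG00000030144, mm9 chr6:123212125-123225286, plus strand) was at 12.9, 15.8, 17.6 and 16.6 TPM in HMMR-Tg tumors, against 1.71, 20.9, 9.99 and 4.19 TPM in control tumors. The HMMR-Tg tumors lay close together and the control tumors were spread on both sides, with the highest level of all in control tumor 2 and the lowest in control tumor 1. The log2 difference of 1.12 had an interval from -0.13 to 2.37 (limma unadjusted p = 0.0727, exact permutation p = 0.171). It was 0.63 without tumor 1 and 1.63 without tumor 2. The log2 ratio of Clec4d to Clec4e was 1.21 ± 0.70 in HMMR-Tg and 1.30 ± 1.07 in control tumors (difference -0.09, exact permutation p = 0.886), and the sign of that difference turned when tumor 2 or tumor 5 was left out.

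Trem1 and Trem3 lie next to each other on chromosome 17 and encode receptors that signal through the adaptor Tyrobp to amplify inflammatory responses. Trem1 (ENSMUSG00000042265, mm9 chr17:48371903-48386091, plus strand) was at 2.54, 1.85, 3.29 and 2.26 TPM in HMMR-Tg tumors, against 0.610, 1.14, 1.96 and 0.393 TPM in control tumors. The highest level was in HMMR-Tg tumor 7, where calprotectin was lowest, and the only overlap was control tumor 3 above HMMR-Tg tumor 6. The mean was 2.48 ± 0.607 TPM in HMMR-Tg and 1.02 ± 0.696 TPM in control tumors, a log2 difference of 0.83 with a standard error of 0.32 (limma unadjusted p = 0.0272, Benjamini-Hochberg adjusted p = 0.9998, exact permutation p = 0.0571). Trem3 (ENSMUSG00000041754, mm9 chr17:48386944-48398207, plus strand) was at 0.760, 0.420, 0.375 and 0.540 TPM in HMMR-Tg tumors, against 0.153, 0.235, 0.681 and 0.164 TPM in control tumors. It was the lowest of the 9 genes by mean level, control tumor 3 was again above most HMMR-Tg tumors, and the log2 difference was 0.23 (limma unadjusted p = 0.144, exact permutation p = 0.171). The log2 ratio of Trem3 to Trem1 was -2.27 ± 0.60 in HMMR-Tg and -1.76 ± 0.46 in control tumors (difference -0.51, exact permutation p = 0.229, adjusted p = 0.471 over the 3 ratios). With 1 added to both TPM values that difference was -0.60 with an exact permutation p of 0.0286 (adjusted p = 0.0857). Trem3 was under 1 TPM in every tumor, so with 1 added this ratio mostly follows Trem1. It cannot tell a change in the ratio from the Trem1 difference given above.

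Acod1 encodes the mitochondrial enzyme that makes itaconate, an antimicrobial and immunomodulatory metabolite of activated myeloid cells. Acod1 (ENSMUSG00000022126, mm9 chr14:103446194-103455790, plus strand) was at 9.72, 6.08, 30.3 and 5.32 TPM in HMMR-Tg tumors, against 1.10, 5.11, 3.73 and 2.29 TPM in control tumors. The genotypes did not overlap, but the gap was narrow, between 5.32 TPM in HMMR-Tg tumor 8 and 5.11 TPM in control tumor 2, and HMMR-Tg tumor 7 stood far above the rest. The mean was 12.8 ± 11.8 TPM in HMMR-Tg and 3.06 ± 1.74 TPM in control tumors, a log2 difference of 1.56 with a standard error of 0.54 (limma unadjusted p = 0.0164, Benjamini-Hochberg adjusted p = 0.9998). The exact permutation p was 0.0286, the smallest that the 70 arrangements of these tumors can give. Without tumor 7 the difference was 1.06, the lowest value with any single tumor left out, and the highest was 1.83, without tumor 8.

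Hdc encodes histidine decarboxylase, which makes histamine from histidine. Hdc (ENSMUSG00000027360, mm9 chr2:126419403-126445035, minus strand) was at 5.62, 2.65, 0.778 and 8.53 TPM in HMMR-Tg tumors, against 0.761, 1.42, 4.02 and 1.87 TPM in control tumors. HMMR-Tg tumors 5 and 8 were the highest, HMMR-Tg tumor 7 was at the level of control tumor 1, and the genotypes overlapped. The log2 difference of 0.68 had an interval from -0.52 to 1.89 (exact permutation p = 0.314), and it was 0.32 without tumor 8 and 1.13 without tumor 7. Mast cell genes were low: Cpa3 reached at most 1.08 TPM and Mcpt4 at most 1.95 TPM, both in HMMR-Tg tumor 8, which also had the highest Hdc. Cma1 (1.23 TPM), Tpsb2 (1.40 TPM), Tpsab1 (0.187 TPM) and Gata2 (1.67 TPM) were highest in that tumor too. Of the same list, Kit was highest in control tumor 4, and Fcer1a and Ms4a2 in control tumor 3. Mcpt8, a basophil protease, reached 4.66 TPM in control tumor 3, the control tumor with the highest Hdc, and 1.09 TPM in HMMR-Tg tumor 8, and was at most 0.442 TPM in the others. Apart from Kit, these mast cell and basophil genes were named after their values were seen, and the part of mast cells and basophils in the Hdc level was not tested.

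Retnlg encodes a secreted resistin-like protein abundant in mouse bone marrow and circulating neutrophils. Retnlg (ENSMUSG00000022651, mm9 chr16:48872721-48874611, plus strand) was at 5.296, 3.13, 0.252 and 6.00 TPM in HMMR-Tg tumors, against 0.124, 0.410, 4.54 and 0.133 TPM in control tumors. The 8 tumors formed a high set of HMMR-Tg tumors 5, 6 and 8 with control tumor 3, and a low set of HMMR-Tg tumor 7 with control tumors 1, 2 and 4. Its highest level was 48.5 times its lowest, the widest range of the 9 genes. The log2 difference of 1.13 had an interval from -0.37 to 2.63 (limma unadjusted p = 0.123, exact permutation p = 0.200).

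**Figure D2:**
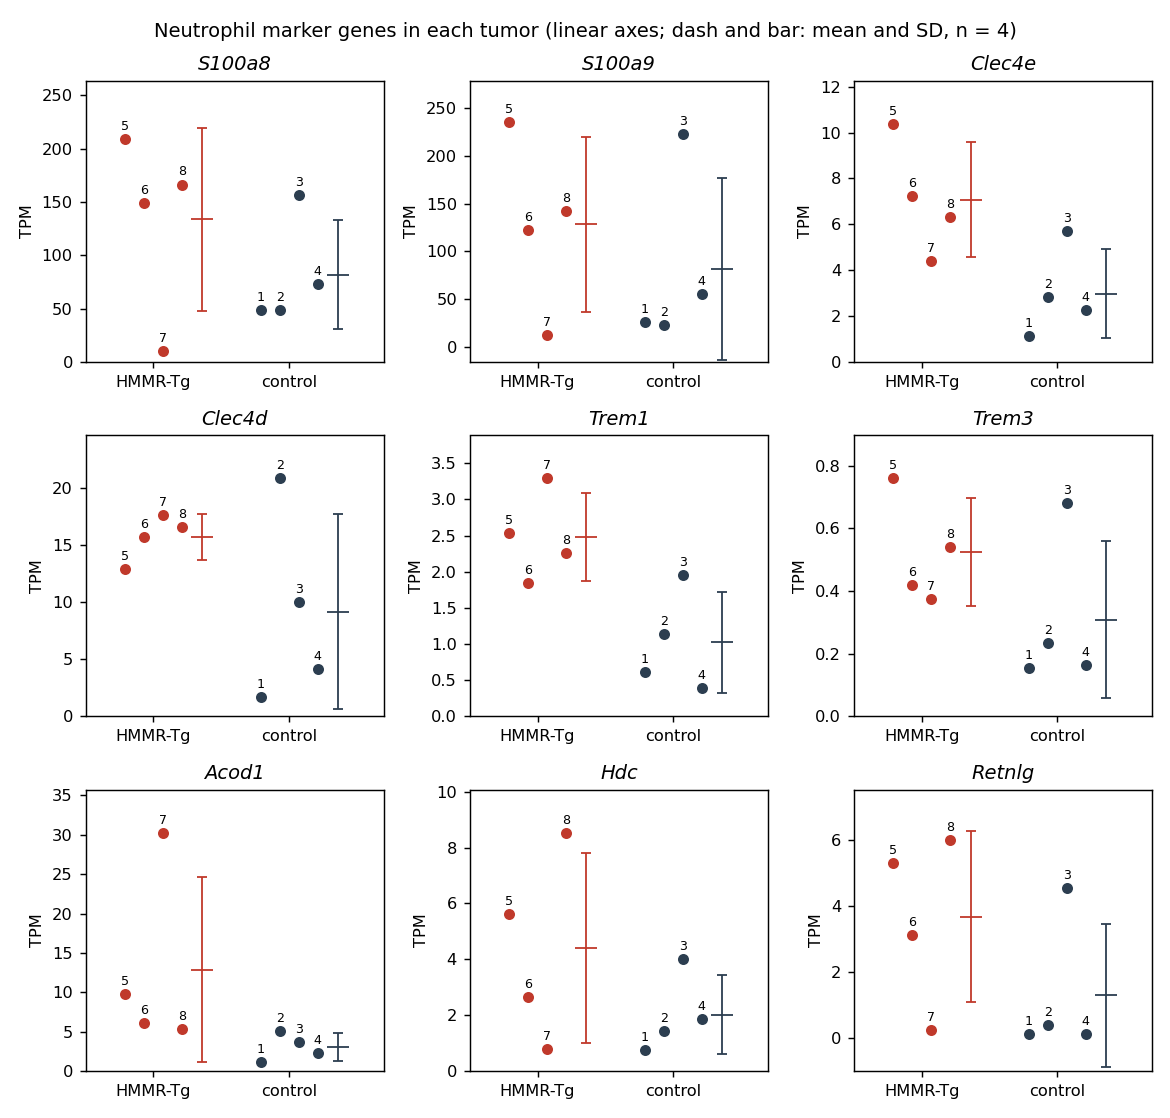
TPM of each neutrophil marker gene in each tumor, on linear vertical axes. Points are tumors with their number beside them, HMMR-Tg tumors (5 to 8) left of control tumors (1 to 4), and the dash and bar give the mean and SD of 4 tumors, with the SD of S100a9 and Retnlg in control tumors reaching below 0. Control tumor 3 lies among the HMMR-Tg tumors for most genes, and HMMR-Tg tumor 7 is lowest for S100a8 and S100a9 and highest for Trem1 and Acod1.

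Ordered by mean TPM over the 8 tumors, the genes ran S100a8 (107.9), S100a9 (105.0), Clec4d (12.4), Acod1 (7.95), Clec4e (5.03), Hdc (3.21), Retnlg (2.48), Trem1 (1.75) and Trem3 (0.416). Neighbors in this order often changed places between tumors. S100a8 exceeded S100a9 in 5 of 8 tumors, Acod1 exceeded Clec4e in 3 of 8, and Retnlg exceeded Trem1 in 4 of 8, so these neighbors did not differ beyond their spread. S100a9 was above Clec4d in 7 of 8 tumors, the exception being HMMR-Tg tumor 7, and Trem1 was above Trem3 in 8 of 8.

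Tumors of the same genotype differed widely from each other. HMMR-Tg tumors 5 and 6 were above the mean log2 level of the gene for 9 of 9 genes and HMMR-Tg tumor 8 for 8 of 9, while HMMR-Tg tumor 7 was above it for 4. Control tumors 1 and 4 were above the mean for 0 of 9 genes, control tumor 2 for 1 (Clec4d) and control tumor 3 for 7. HMMR-Tg tumor 5 had the highest level of all tumors for 4 genes and control tumor 1 the lowest for 6. Averaged over the 9 genes, the log2 level was 3.82, 3.34, 2.52 and 3.62 in HMMR-Tg tumors, against 1.76, 2.48, 3.41 and 2.25 in control tumors.

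**Figure D3:**
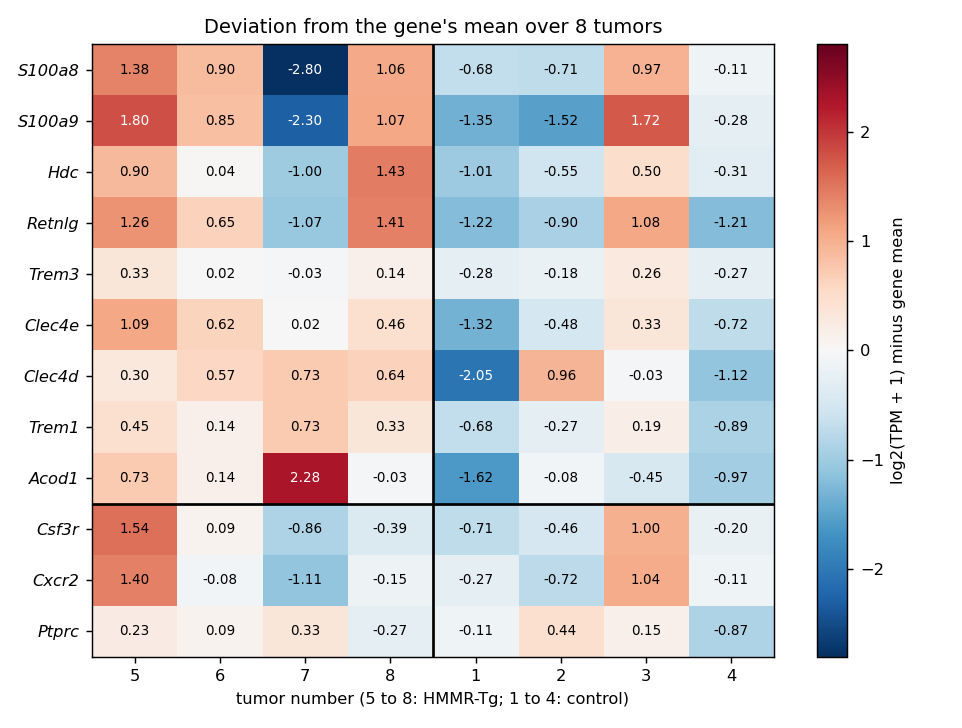
Deviation of each tumor from the mean of the gene over 8 tumors, in log2(TPM + 1), for the 9 neutrophil marker genes and, under the line, Csf3r, Cxcr2 and Ptprc. Columns are HMMR-Tg tumors 5 to 8 and then control tumors 1 to 4, red is above the mean and blue below it. HMMR-Tg tumor 7 is blue for S100a8 (-2.80), S100a9 (-2.30), Hdc (-0.997) and Retnlg (-1.07) and red for Acod1 (2.28) and Trem1 (0.73).

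With all 8 tumors included, the genes differed in which tumors they were high in, with S100a8, S100a9, Hdc and Retnlg on 1 side and Acod1 and Trem1 on the other. Over the 8 tumors 34 of 36 pairs of genes had a positive Pearson r of log2 levels, the median r was 0.70, and 8 pairs had a permutation p under 0.05 after Benjamini-Hochberg adjustment over the 36. S100a8 and S100a9 had the highest r, 0.94 (rho = 0.98, permutation p = 0.000223 and 0.000397, adjusted p = 0.00804 and 0.0143), and r was 0.97 without the 2 tumors farthest from the median of S100a8. Hdc and Retnlg had r = 0.92 (rho = 0.93, permutation p = 0.000521 and 0.00223, adjusted p = 0.00938 and 0.0329), and r was 0.88 without the 2 farthest tumors. These pairs shared their high tumors 3, 5, 6 and 8. Other pairs crossed the 2 sides or lay outside them. Clec4e and Trem3 had r = 0.91, and with Retnlg r was 0.90 for Trem3 and 0.85 for Clec4e (adjusted permutation p = 0.0289, 0.0317 and 0.0387). Clec4e also had r = 0.79 with Trem1 (adjusted permutation p = 0.0674).

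Trem1 and Acod1, both highest in HMMR-Tg tumor 7, had r = 0.85 (rho = 0.86, permutation p = 0.00553 and 0.0107, adjusted p = 0.0374 and 0.0482), and r was 0.76 without the 2 farthest tumors. S100a8 and Acod1 had the lowest r, -0.39 (rho = 0.10, permutation p = 0.325 and 0.840, adjusted p = 0.428 and 0.864). That negative value rested on a few tumors, since r was 0.95 without the 2 farthest from the median of S100a8. The division into 2 sides also rested in part on few tumors. Without the 2 farthest from the median of the first gene, r was 0.94 for S100a8 with Trem1 and 0.87 for S100a9 with Acod1. With all 8 tumors these were 0.0012 and -0.16. Trem1 went the other way, with r of 0.04 with Hdc and 0.09 with Retnlg without its 2 farthest tumors. With all 8 tumors these were 0.39 and 0.57, so Trem1 was not apart from that side as a whole. With 4 tumors per genotype, no correlation was computed within a genotype, and points share the genotype difference.

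**Figure D4:**
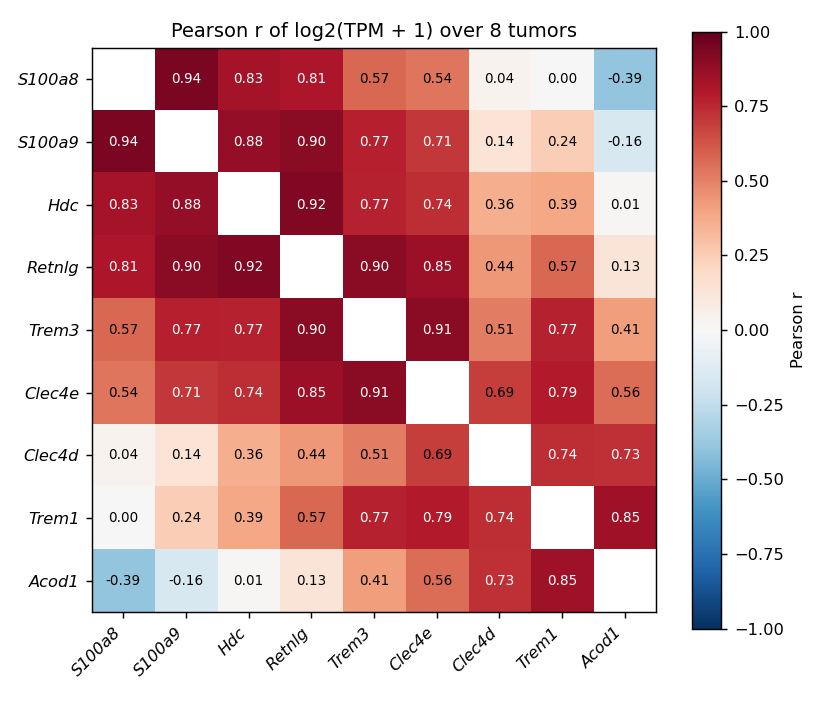
Pearson r between the log2(TPM + 1) levels of each pair of neutrophil marker genes over 8 tumors, with red for positive and blue for negative values. The block from S100a8 to Retnlg runs from 0.81 to 0.94, and Acod1 reaches 0.85 with Trem1 and -0.39 with S100a8.

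Against the reference genes, S100a9 followed Cxcr2 most closely. Their r was 0.88 (rho = 0.93, permutation p = 0.000694 and 0.00223, adjusted p = 0.0188 and 0.0603 over 27 pairs), and r was 0.84 without the 2 farthest tumors. It was the only pair of the 27 with an adjusted p of r under 0.05. S100a9 and Csf3r had r = 0.83 (rho = 0.90, permutation p = 0.00620 and 0.00456, adjusted p = 0.0837 and 0.0616). Acod1 and Cxcr2 had r = -0.20 (rho = 0, permutation p = 0.637 and 1, adjusted p = 0.860 and 1). Clec4d with Cxcr2 had r = -0.09 (rho = -0.45, permutation p = 0.860 and 0.267, adjusted p = 0.893 and 0.451), and Trem1 with Cxcr2 had r = 0.13 (rho = 0.05, permutation p = 0.760 and 0.935, adjusted p = 0.873 and 0.971). Without the 2 farthest tumors these values of r were -0.74 for Acod1, -0.41 for Clec4d and -0.50 for Trem1. Ptprc, the CD45 antigen carried by all leukocytes, was at 29.3, 26.5, 31.4 and 20.4 TPM in HMMR-Tg tumors, against 22.8, 34.0, 27.5 and 13.1 TPM in control tumors. Its r with S100a9 was -0.12 (rho = -0.26, permutation p = 0.796 and 0.536, adjusted p = 0.873 and 0.762). Other genes were closer to Ptprc. Its r was 0.62 with Trem1, 0.59 with Clec4d and 0.55 with Acod1 (adjusted permutation p = 0.229, 0.258 and 0.302). Without the 2 farthest tumors these were 0.49, 0.87 and 0.66. The lowest r was -0.20, with S100a8. With Ptprc in the fit as a covariate, the log2 differences of the 3 genes with the smallest p were 1.34 for Acod1, 1.03 for Clec4e and 0.71 for Trem1. These were lower than without it, as were those of Clec4d (0.89), Retnlg (1.11) and Trem3 (0.20). Those of S100a8 (0.42), S100a9 (0.86) and Hdc (0.78) were higher. In that fit 0 of the 9 genes passed the adjusted test.

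Outside the 9 genes, the pattern most like their mean log2 level over the 8 tumors, among 14827 genes, was that of Nmd3 (r = 0.98), followed by Fabp4 (0.97), Spata5 (0.96), Fndc3b (0.96) and Cstdc4 (0.96). Fabp4, a fatty acid carrier of adipocytes, macrophages and endothelium, was at 101, 59.5, 37.8 and 98.8 TPM in HMMR-Tg tumors, against 16.7, 33.1, 93.1 and 37.3 TPM in control tumors. Cstdc4, a cystatin-domain gene, was at 8.74, 5.48, 0.572 and 5.72 TPM in HMMR-Tg tumors, against 0.349, 0.646, 7.28 and 0.322 TPM in control tumors, which are the same high and low tumors as for Retnlg. The nearest genes to S100a9 were Abl2, Ncs1, Cacybp, Col18a1 and Tnfrsf12a (r from 0.965 to 0.977), with S100a8 at rank 18 and Retnlg at rank 63. The nearest to Hdc were Rtn4, Ckap4, 1190005I06Rik, Egfl7 and Pnpla3 (r from 0.929 to 0.957), with Retnlg at rank 7. These values of r are over 8 tumors that include both genotypes and are a description with no test.

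The promoters of the genes that carry these patterns are shown because the calprotectin pair and Hdc with Retnlg moved together. Trem1 with Acod1 had the other pattern over all 8 tumors, a difference that rested in part on few tumors. The RefSeq promoter table (build GRCm38.p6) matched 8 of the 9 genes, all but Trem3. Each sequence is the 250 bases before the start site, 5′ to 3′ on the strand of the gene, and capitals mark matches to letters known from binding sites of myeloid factors, searched on both strands. The letters were GAGGAAG for PU.1 and TTNCNNAA for C/EBP, where N is any base. The NF-kB motif had separate letters of its own. They are a run of G and a run of C with a fixed number of any bases between them, as in GGGACAGACC of Acod1. None of the matches overlap in the sequences printed. The regions are chr3:90668821-90669070 (plus strand) for S100a8, chr3:90695722-90695971 (minus strand) for S100a9, chr2:126618679-126618928 (minus strand) for Hdc, chr16:48872358-48872607 (plus strand) for Retnlg, chr17:48232489-48232738 (plus strand) for Trem1 and chr14:103046762-103047011 (plus strand) for Acod1.
S100a8: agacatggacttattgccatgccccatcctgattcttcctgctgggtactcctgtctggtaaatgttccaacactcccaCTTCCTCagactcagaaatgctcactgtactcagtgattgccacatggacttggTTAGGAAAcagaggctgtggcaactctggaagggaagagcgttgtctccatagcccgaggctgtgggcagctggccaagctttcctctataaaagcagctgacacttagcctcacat
S100a9: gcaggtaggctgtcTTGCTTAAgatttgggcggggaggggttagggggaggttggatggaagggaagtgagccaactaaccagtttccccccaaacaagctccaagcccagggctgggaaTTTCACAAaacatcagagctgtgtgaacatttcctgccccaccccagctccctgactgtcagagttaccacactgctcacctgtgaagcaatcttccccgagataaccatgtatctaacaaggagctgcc
Hdc: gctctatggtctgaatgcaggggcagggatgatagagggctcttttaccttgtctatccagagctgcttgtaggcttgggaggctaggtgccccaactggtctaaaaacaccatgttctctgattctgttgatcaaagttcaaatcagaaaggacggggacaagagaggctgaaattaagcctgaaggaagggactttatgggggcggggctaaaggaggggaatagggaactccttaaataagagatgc
Retnlg: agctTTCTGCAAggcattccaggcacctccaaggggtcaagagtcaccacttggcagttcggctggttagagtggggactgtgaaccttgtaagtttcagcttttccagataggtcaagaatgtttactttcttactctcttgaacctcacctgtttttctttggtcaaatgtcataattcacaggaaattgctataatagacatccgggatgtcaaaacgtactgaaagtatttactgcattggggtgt
Trem1: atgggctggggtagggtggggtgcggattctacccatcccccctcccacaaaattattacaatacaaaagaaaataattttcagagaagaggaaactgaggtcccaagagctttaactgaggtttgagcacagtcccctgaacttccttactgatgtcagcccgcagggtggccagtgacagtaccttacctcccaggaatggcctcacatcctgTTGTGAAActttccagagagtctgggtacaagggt
Acod1: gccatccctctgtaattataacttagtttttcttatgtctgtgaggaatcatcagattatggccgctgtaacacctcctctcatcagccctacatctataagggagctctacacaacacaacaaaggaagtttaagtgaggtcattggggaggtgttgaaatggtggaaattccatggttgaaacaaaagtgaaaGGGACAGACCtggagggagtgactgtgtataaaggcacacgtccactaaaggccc

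The C/EBP-type letters were found in the promoters of 6 of the 8 genes (S100a8, S100a9, Clec4e, Clec4d, Trem1 and Retnlg), against 36.8% of all 32536 promoters in the table. S100a9 held 2 such matches, TTGCTTAA and TTTCACAA, and S100a8 held TTAGGAAA together with the PU.1-type match CTTCCTC. The PU.1-type letters were in 2 of 8 (S100a8 and Clec4d), against 10.7% of all promoters. The NF-kB-type motif was in 1 of 8, Acod1 (GGGACAGACC), against 46.0% of all promoters. The window of Hdc held none of the 3 sets of letters. A match describes the letters only and is not a measured site.

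Other genes of neutrophils gave a mixed picture. Of 29 mature neutrophil genes 24 were tested, 18 with a higher and 6 with a lower mean log2 level in HMMR-Tg tumors, a median difference of 0.26 and 0 past the adjusted test (limma, Benjamini-Hochberg). Over all genes tested, 48.7% had a higher mean and 1.04% were higher with no overlap. At an unadjusted p under 0.05, 3 were higher and 0 lower, against 1.62% and 1.83% of all genes tested. These 3, named after their values were seen, were Il1r2, a decoy receptor for interleukin-1 (15.1 ± 6.90 TPM in HMMR-Tg and 6.29 ± 4.95 TPM in control tumors), Mmp9, a gelatinase stored in granules (11.7 ± 5.16 TPM in HMMR-Tg and 5.44 ± 4.08 TPM in control tumors), and Il1b, a proinflammatory cytokine (74.1 ± 24.5 TPM in HMMR-Tg and 43.6 ± 13 TPM in control tumors, no overlap). The 3 most abundant genes of the list had lower means in HMMR-Tg tumors: Lcn2, an iron-siderophore binder (3058 TPM in HMMR-Tg and 4527 TPM in control tumors), Slpi, a protease inhibitor (274 TPM in HMMR-Tg and 501 TPM in control tumors), and Cd14, a co-receptor for lipopolysaccharide (178 TPM in HMMR-Tg and 278 TPM in control tumors). Lcn2, Slpi and Cd14 are also made by mammary epithelium. The share from neutrophils was not tested for these 3 genes, nor for Il1r2, Mmp9 and Il1b.

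Genes of granules that are transcribed in bone marrow precursors were mostly at or near 0. Of 13 listed 4 were tested, with 2 higher, 2 lower and 0 past the adjusted test or an unadjusted p under 0.05, and a median difference of -0.27. Mpo, Elane and Fcnb were named after their values were seen, and Prtn3 and Ltf of the same list had far higher means. Prtn3 ranged from 1.69 to 126 TPM in HMMR-Tg and from 4.21 to 70.2 TPM in control tumors. Mpo did not exceed 0.208 TPM and Elane 1.05 TPM, and Fcnb was listed at 0 in all 8 tumors. Ltf, the iron binder lactoferrin, which mammary epithelium also secretes, ranged from 5.25 to 7020 TPM in HMMR-Tg tumors and from 34.8 to 5904 TPM in control tumors. Prtn3, a serine protease, averaged 59.9 TPM in HMMR-Tg and 43.8 TPM in control tumors, and Itgb2l, an integrin, 0.675 TPM in HMMR-Tg and 1.97 TPM in control tumors.

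Among the attractants and growth factors of neutrophils 11 of 12 tested genes had a higher mean log2 level in HMMR-Tg tumors and 1 a lower, with a median difference of 0.69 and 0 past the adjusted test (limma, Benjamini-Hochberg). Cxcl2, a Cxcr2 ligand, was at 24.0, 17.0, 41.6 and 55.1 TPM in HMMR-Tg tumors, against 6.51, 17.2, 11.8 and 8.76 TPM in control tumors. Only control tumor 2 reached the HMMR-Tg range (difference 1.49, standard error 0.41, limma unadjusted p = 0.00467, Benjamini-Hochberg adjusted p = 0.9998, exact permutation p = 0.0571). Cxcl1, another Cxcr2 ligand, averaged 94.95 ± 79.8 TPM in HMMR-Tg and 46.8 ± 22.1 TPM in control tumors, and Cxcl5 71.6 ± 103 TPM in HMMR-Tg and 70.8 ± 78.8 TPM in control tumors. At an unadjusted p under 0.05, Tnf (difference 1.78) and Il6 (2.01) were also higher and no gene of the list was lower. Over all genes tested, 1.62% were higher and 1.83% lower at that p. Il6 and Csf2 (0.60) were the 2 genes of the list whose genotypes did not overlap, against 1.04% of all genes tested that were higher with no overlap. Tnf, Il6 and Csf2 were named after their values were seen.

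Of 13 tested signaling partners of the lectin and Trem receptors, 10 had a higher and 3 a lower mean log2 level in HMMR-Tg tumors, with a median difference of 0.24 and 0 at an unadjusted p under 0.05 in either direction. The adaptors Tyrobp (211 ± 56.6 TPM in HMMR-Tg and 194 ± 96.6 TPM in control tumors) and Fcer1g (183 ± 35.0 TPM in HMMR-Tg and 164 ± 67.1 TPM in control tumors) and the signaling protein Bcl10 (58.5 ± 10.4 TPM in HMMR-Tg and 62.3 ± 17.9 TPM in control tumors) were the most abundant, and their means were close in the 2 genotypes. Clec4n, a related lectin receptor named after its values were seen, had the largest difference of the list, 0.92 (63.9 TPM in HMMR-Tg and 39.3 TPM in control tumors). Tyrobp was 328 TPM in control tumor 2, the tumor with the highest Clec4d, and 292 TPM in HMMR-Tg tumor 7, the tumor with the highest Trem1.

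Of 15 tested receptors of calprotectin and other S100 genes, 10 had a higher and 5 a lower mean, with a median difference of 0.39 and 0 past the adjusted test. S100a6, S100a11 and S100a10, the most abundant, had differences of 0.39, 0.27 and 0.82. Cd36, a scavenger receptor named after its values were seen, was the only gene of the list at an unadjusted p under 0.05, at 7.198 ± 1.21 TPM in HMMR-Tg and 3.74 ± 1.74 TPM in control tumors (difference 0.85, no overlap). Over all genes tested, 1.62% were higher at that p and 1.04% were higher with no overlap. Tlr4 and Ager, the calprotectin receptors, were named outside the rule on level: Tlr4 averaged 8.99 TPM in HMMR-Tg and 13.2 TPM in control tumors, and Ager 5.32 TPM in HMMR-Tg and 2.88 TPM in control tumors. Of 8 genes of histamine receptors, breakdown and transport, 3 were tested, all at an unadjusted p above 0.05: Aoc1 (3.62 TPM in HMMR-Tg and 2.47 TPM in control tumors) and Hnmt (3.01 TPM in HMMR-Tg and 0.793 TPM in control tumors), which break histamine down, and Slc18a2, its vesicle transporter (2.38 TPM in HMMR-Tg and 2.94 TPM in control tumors).

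Cells other than neutrophils that express these genes were followed by their markers. Macrophage markers, 13 of 13 tested, had 11 higher and 2 lower means and a median difference of 0.23, and their summed level was 2341 to 5335 TPM in HMMR-Tg and 2145 to 6081 TPM in control tumors. That sum was highest in control tumor 2 and HMMR-Tg tumor 7, which were also the highest tumors for Clec4d. Apoe made up most of the sum in these tumors, at 3809 TPM in tumor 2 and 3490 TPM in tumor 7. Monocyte markers, 8 of 8 tested, had 6 higher and 2 lower means and summed to 163 to 686 TPM in HMMR-Tg and 194 to 370 TPM in control tumors. Nr4a1 (295 TPM) and Vcan (254 TPM) made up most of the highest sum, that of HMMR-Tg tumor 8. Pan-leukocyte genes, 6 of 6 tested, had 6 higher means, a median difference of 0.36 and sums of 308 to 659 TPM in HMMR-Tg and 212 to 603 TPM in control tumors. No gene of these 3 lists had an unadjusted p under 0.05, and their part in the levels of the 9 genes was not tested.

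The summed squamous and keratinocyte markers were highest in the tumors with the most S100a9, but the single markers were not all so. Of 17 matched markers 10 were tested, 8 with a higher and 2 with a lower mean, and 1, Sprr1a (2.65 TPM in HMMR-Tg and 0.643 TPM in control tumors), had an unadjusted p under 0.05 and was named after its values were seen. Over all genes tested, 1.62% were higher at that p. The sum of the markers was 1616, 435, 79.8 and 325 TPM in HMMR-Tg tumors, against 79.1, 879, 1645 and 111 TPM in control tumors. HMMR-Tg tumor 5 and control tumor 3, the tumors highest in S100a9, had the highest sums, and HMMR-Tg tumor 7 and control tumor 1 the lowest. Krt14 was at 1131, 310, 19.0 and 106 TPM in HMMR-Tg tumors, against 37.9, 338, 943 and 48.9 TPM in control tumors. Krt6a was at 216, 6.64, 0.425 and 36.8 TPM in HMMR-Tg tumors, against 0.160, 55.2, 580 and 0.252 TPM in control tumors. Krt14 and Krt6a made up most of the sum in tumors 5 and 3. Krt5 was highest in control tumor 2 (298 TPM), where S100a9 was among the lowest (22.7 TPM), and was 7.58 TPM in HMMR-Tg tumor 5 and 7.93 TPM in control tumor 3. Of the 10 tested markers, 3 were highest in HMMR-Tg tumor 5, 2 in control tumor 3 and 3 in control tumor 2. The r of S100a9 with the summed markers was 0.70 (rho = 0.67, permutation p = 0.0698 and 0.0831, adjusted p = 0.413 for r) and 0.39 without the 2 farthest tumors, and the part of keratinizing cells in the S100a8 and S100a9 levels was not tested. Of 144 relations between a gene and a summed list, 0 had an adjusted permutation p of r under 0.05.

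Mast cell and basophil markers gave 1 tested gene of 10, Kit, which luminal mammary cells also express. T cell markers (8 of 8 tested, 4 higher and 4 lower) summed to 9.05 to 37.9 TPM in HMMR-Tg and 10.6 to 34.9 TPM in control tumors. Dendritic cell markers (2 of 8 tested) summed to 31.0 to 51.2 TPM in HMMR-Tg and 27.9 to 55.1 TPM in control tumors, and mammary epithelial markers (6 of 6 tested, 3 higher and 3 lower) to 1917 to 4557 TPM in HMMR-Tg and 2404 to 4991 TPM in control tumors. Skeletal muscle markers (10 of 10 tested, 3 higher and 7 lower) summed to 10.5 to 423 TPM in HMMR-Tg and 14.3 to 347 TPM in control tumors, highest in HMMR-Tg tumor 6 and control tumor 1. Red cell markers (3 matched of 5) summed to 94.1 to 291 TPM in HMMR-Tg and 68.0 to 148 TPM in control tumors. Tumors 6, 1 and 3 had the highest muscle marker sums, but that of tumor 3 (66.9 TPM) was near that of tumor 2 (57.4 TPM), which was kept. Without tumors 1, 3 and 6, control tumors 2 and 4 remained, and the log2 difference was 1.52 for Acod1, 1.12 for Clec4e and 1.09 for Trem1. That of Clec4d was 0.64, against 1.12 with all tumors. S100a9 had 1.09 and Retnlg 1.59, against 0.71 and 1.13 with all tumors.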

How the data were processed

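RNA-seq values of 8 bulk mammary tumors, 4 HMMR-Tg and 4 control, were analysed as TPM computed by the authors before deposit. The study's methods describe Kallisto and tximport, while bedtools, SAMtools 0.1.18 and STAR 2.4.0f1 with build mm9 are listed in the submitters' processing notes, and which route gave the deposited TPM was not settled. The columns sum to 994000.9 to 994984.0, no pair was identical, and depth is unknown, so no counting interval was given. The study's count test was not run because counts were not used here.

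Symbols and mm9 coordinates came from GENCODE M1, with newer symbols from RefSeq (25388 of 35539 IDs matched), and promoter sequences from RefSeq (GRCm38.p6). Genes averaging 1 TPM or more were tested on log2(TPM + 1) with limma 3.58.1 under R 4.3.3, with a mean-variance trend and Benjamini-Hochberg adjustment over 14835 genes at 0.05. Single values and ratios were compared by exact permutation over 70 arrangements (smallest p 0.0286), and correlations by permutation over all pairings. Ratios with 1 tumor left out had 35 arrangements. All tests were two-sided, and intervals are at 95%. Tables and figures were made with matplotlib 3.10.9, statsmodels 0.14.6, numpy 2.4.6 and pandas 2.3.3 in Python 3.11.15. The fit was tested on simulated data.

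The 9 genes and all gene lists were chosen with earlier results of these data known. The text names the 9 genes, Csf3r, Cxcr2, Ly6g and Ptprc, of each other list up to 3 genes by mean TPM, and the 5 genes nearest by Pearson r to the mean of the 9, to S100a9 and to Hdc, and others are marked where they stand as named outside this rule or after their values were seen. The alternatives tried were other pseudocounts (0.1 and 5), a minimum of 5 TPM or none, quantile or median-of-ratios scaling, rescaling without mitochondrially encoded, milk protein, skeletal muscle and red cell genes, other moderation, array weights, Ptprc as a covariate, and leaving out tumors.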

Additional observations from a re-analysis of the deposited data

Results flagged for a closer look

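S100a8 in HMMR-Tg tumors was flagged because tumor 7 lay far below the other 3, at 10.6 TPM against 149 to 209 TPM. On the log2(TPM + 1) scale the gap from tumor 7 to its nearest neighbor was 0.884 of the range of the group, above the critical value of Dixon's test for groups of 4. Retnlg in control tumors was flagged because tumor 3, at 4.54 TPM, lay far above the other 3, at 0.124 to 0.410 TPM, with a gap of 0.858 of the range. Among 18 groups looked at, 2 were flagged, and chance flags about 1 in 20. Cxcr2 was 1.03 TPM in HMMR-Tg tumor 7, the lowest of all 8, and 8.08 TPM in control tumor 3, the highest of the control tumors. Other neutrophil genes did not all go the same way: of 24 tested mature neutrophil genes, 9 were lowest and 2 highest in HMMR-Tg tumor 7, and 4 were highest and 3 lowest in control tumor 3.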

How the results depend on the processing

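Under 20 alternatives the count of the 9 genes past the adjusted test remained 0 (limma, Benjamini-Hochberg adjusted p from 0.581 to 1.0), and 178 of 180 log2 differences were positive. The 2 negative ones were S100a8 without tumor 5 (-0.15) and without tumor 8 (-0.04), where leaving out single tumors gave -0.15 to 1.24. The median difference over the 9 genes was 0.63 to 1.30 with single tumors left out, 0.46 with a pseudocount of 5 and 1.30 with one of 0.1. Over all genes, 3 were higher in HMMR-Tg tumors without tumors 1, 3 and 6, where fewer samples were fitted, and 6 to 10 with single tumors left out. Lower genes numbered 1 with a pseudocount of 0.1 and 0 to 1 with single tumors left out. The difference in log2 ratio of S100a9 to S100a8 was 0.27 to 0.80 with single tumors left out, that of Clec4d to Clec4e was 0.0285 with 1 added to both values and -0.35 to 0.44 with single tumors left out, and that of Trem3 to Trem1 was -0.60 with 1 added and -0.68 to -0.22 with single tumors left out. The cause of these shifts was not tested. No paired analysis was possible because the genotypes share no replicate numbers. With 4 tumors per genotype and an unknown depth, differences smaller than the intervals given could not be told from 0.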
